A study of Saccharomyces cerevisiae with 10 samples.

Results

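The ORC peaks described here were listed in both Orc4-IHΔ and WT yeast. They lay outside every ATAC-seq peak listed for separate G2/M samples of either label, that is, outside chromatin scored as open. A peak, one interval of a deposited list, was taken when it overlapped an ORC peak of the other strain by at least 1 bp and overlapped none of the 2716 regions obtained by merging the ATAC-seq peaks of both strains. This left 241 of 2837 ORC peaks, namely 130 of 2219 in the Orc4-IHΔ list (5.86%) and 111 of 618 in the WT list (18.0%). Joined where they overlapped, these peaks fell into 125 loci, of 271 loci at which the 2 lists met. The peaks were thus selected on the overlaps of the listed intervals with the other strain and with open chromatin, so these overlaps are given as a description, and no test was made on them.

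ORC, the origin recognition complex, marks the sites in the genome where the MCM helicase is loaded and DNA replication can start. In Saccharomyces cerevisiae it recognises a short T-rich consensus sequence in each replication origin, and an insertion helix in the Orc4 subunit reaches into the major groove of that DNA and helps to make the recognition base specific. Human ORC4 lacks this helix and human ORC shows no such sequence preference. Yeast origins are generally depleted of nucleosomes, and ATAC-seq, in which a transposase cuts DNA that is not wrapped in nucleosomes, maps such open stretches.

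The mutant strain, CL_MUT_O6_MYC, carried orc4-IHΔ, an ORC4 gene from which the insertion helix was deleted, and the control strain, CL_WT_O6_MYC, carried intact ORC4. Each was integrated at ura3-1 with URA3 and driven by the native ORC4 promoter. Both strains were W303-1a MATa cells with the marker alleles can1-100, ade2-1, trp1-1, ura3-1 and, each a double allele, leu2-3, 112 and his3-11, 15. In both, the chromosomal ORC4 gene was under the GALS promoter (GALS-ORC4-kanMX4), which was switched off in glucose medium for 18 h at 30 °C, and Orc6 carried a MYC tag (ORC6-MYC-hphNT1) through which ORC-bound DNA was recovered. How much Orc4 from the GALS promoter was left could not be read from the peak lists. A G2/M arrest was imposed with benomyl, a microtubule inhibitor, at 20 µg/ml for 3 h, and for ORC ChIP-seq they were fixed with 1% formaldehyde and their DNA was sonicated to about 300 bp. Each strain had 1 ORC list, which combines 2 libraries, and 1 ATAC-seq list from 1 library.

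The fold enrichment of a peak is its read pile-up over the local background as the authors' peak caller wrote it, and it ranks peaks within a list. The read depth behind the lists is unknown, and the Orc4-IHΔ list was 2219 peaks long against 618 in the WT list. The names of the peaks carry the library number 2, so the values may be those of 1 library per strain. Comparisons between strains below therefore set 2 lists side by side and cannot be measured against replicate spread.

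Of the ORC peaks with a counterpart in the other strain, 41.9% of the Orc4-IHΔ peaks (130 of 310, 95% Wilson interval 36.6% to 47.5%) and 40.1% of the WT peaks (111 of 277, 34.5% to 45.9%) lay outside ATAC-seq peaks. These intervals, like all others given here, cover counting error only. Over all peaks of each list, 30.5% of the Orc4-IHΔ peaks and 62.9% of the WT peaks lay outside ATAC-seq peaks, while 14.0% of the Orc4-IHΔ peaks and 44.8% of the WT peaks met a peak of the other strain. The shared peaks of both lists overlap each other, so their shares outside the same ATAC-seq peaks are tied and nothing is read from their likeness. Of the peaks of 1 list only, 28.6% in the Orc4-IHΔ list and 81.5% in the WT list lay outside ATAC-seq peaks. Seen from the other side, among peaks outside ATAC-seq peaks a counterpart was listed for 19.2% in Orc4-IHΔ cells (130 of 676, 16.4% to 22.4%) and 28.5% in WT cells (111 of 389, 24.3% to 33.2%). Among peaks at ATAC-seq peaks the shares were 11.7% in Orc4-IHΔ cells (180 of 1543, 10.2% to 13.4%) and 72.5% in WT cells (166 of 229, 66.4% to 77.9%).

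The shared peaks outside open chromatin ran from weak to among the strongest of their lists. Orc4-IHΔ peaks had fold enrichments of 1.56 to 12.3 with a median of 2.90 (quartiles 2.36 and 3.81), and WT peaks 1.44 to 10.8 with a median of 3.32 (quartiles 2.32 and 7.14). In the Orc4-IHΔ list this median was below that of shared peaks at ATAC-seq peaks (3.40) and of the whole list (3.15), and close to that of peaks listed in Orc4-IHΔ cells only and outside ATAC-seq peaks (2.86). In the WT list it lay close to that of shared peaks at ATAC-seq peaks (3.30), and above those of WT-only peaks outside ATAC-seq peaks (2.47) and of the whole list (2.90). Among the strongest 10% of each list, with fold enrichments from 4.77 in the Orc4-IHΔ list and from 8.22 in the WT list, the shared peaks outside open chromatin made up 16 of 222 Orc4-IHΔ peaks (7.21%, against 5.86% of the whole list) and 16 of 62 WT peaks (25.8%, against 18.0%). In the strongest 25% their shares were 5.23% in the Orc4-IHΔ list and 23.4% in the WT list. Shared peaks at ATAC-seq peaks made up 18.5% of the strongest 10% in the Orc4-IHΔ list (8.11% of the whole list) and 32.3% in the WT list (26.9%).

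**Figure D1:**
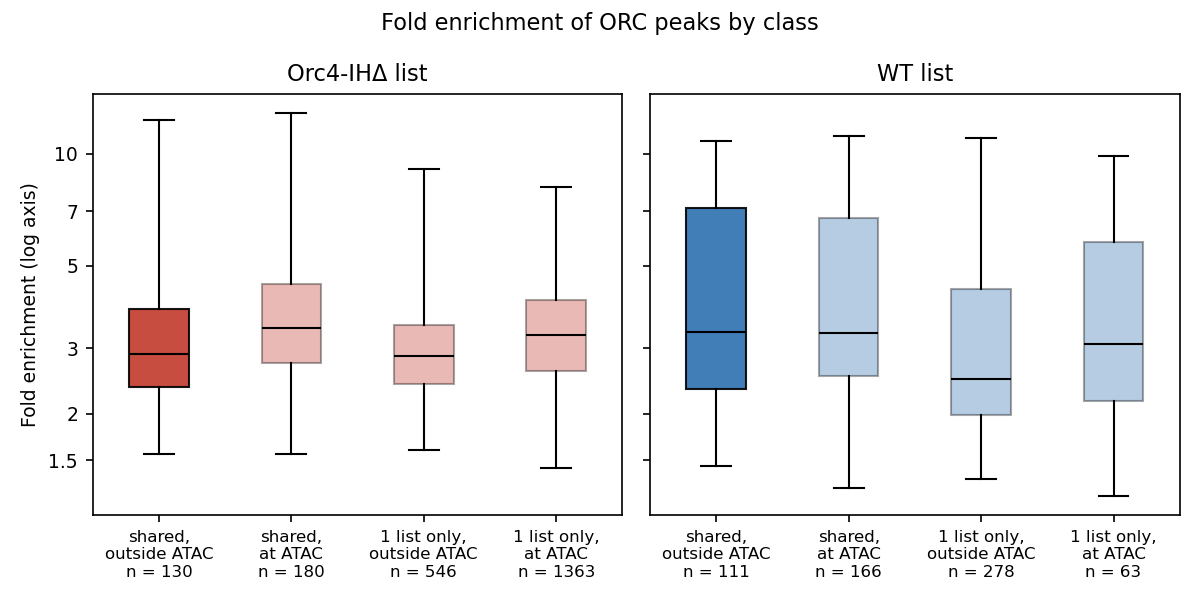
Fold enrichment of ORC peaks on a log axis, Orc4-IHΔ list in the left panel and WT list in the right, split by whether the other strain had an overlapping peak and whether the peak met an ATAC-seq peak. Boxes give quartiles and the median, whiskers the lowest and highest peak. The shared peaks outside ATAC-seq peaks have medians of 2.90 in Orc4-IHΔ cells and 3.32 in WT cells, and the WT box reaches up to 7.14.

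The listed intervals of these peaks were also narrower in the mutant list. By their names the lists hold peaks found in common between libraries and leave out RNA genes, so intervals can be cut. Their width need not be the extent of the ORC signal. The Orc4-IHΔ peaks had a median width of 229.5 bp (4 to 1396 bp) and covered 37528 bp in all, and the WT peaks had a median of 530 bp (32 to 1699 bp) and covered 62597 bp. Shared peaks at ATAC-seq peaks differed less, with medians of 369 bp in Orc4-IHΔ cells and 453.5 bp in WT cells. Over all peaks the medians were 242 bp in the Orc4-IHΔ list and 323 bp in the WT list. Unshared peaks outside ATAC-seq peaks had medians of 196 bp in Orc4-IHΔ cells and 251.5 bp in WT cells. Mutant peaks were thus narrower over the whole lists too, and the WT peaks of the set were wide for their list. Wide peaks meet an ATAC-seq peak more easily, and they also meet a peak of the other list more easily. Both parts of the choice thus bear on width, and their part was not tested. Fold enrichment went with width, as given below, so the choice bears on the median fold enrichments above too. The median −log10 q value, the peak caller's measure of confidence, was 11.2 for the Orc4-IHΔ peaks and 25.2 for the WT peaks, against 18.9 and 28.4 for shared peaks at ATAC-seq peaks of the same lists. Values of −log10 q under 5 were found for 17 Orc4-IHΔ peaks (13.1%) and 15 WT peaks (13.5%), compared with 10 (5.56%) and 9 (5.42%) of the shared peaks at ATAC-seq peaks.

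Of the 125 loci, 105 lay outside ATAC-seq peaks with all their ORC peaks, and the median extent of these loci was 552 bp. Of these, 95 held 1 peak of each strain, 8 held 2 Orc4-IHΔ peaks within reach of 1 WT peak, and 2 held 1 Orc4-IHΔ peak and 2 WT peaks. The other 20 loci were longer, with a median extent of 1376 bp, and only some of their peaks missed an ATAC-seq peak. In 16 of these 20 an Orc4-IHΔ peak lay outside while the WT peak reached an ATAC-seq peak, and in 4 the reverse was seen. On chromosome IV, for example, the WT peak at chrIV:702238-704225 met an ATAC-seq peak and had a fold enrichment of 11.1, the highest WT value at the 125 loci. The mutant list had 2 peaks there, of which chrIV:702708-703197 (6.81) lay outside ATAC-seq peaks and chrIV:704139-704434 (3.61) did not.

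At the 95 loci with 1 peak per strain, all outside ATAC-seq peaks, the values of the 2 lists were set side by side. The lists were called separately, so their fold enrichments need not be on a common scale. In 69 of the pairs both peaks had a name of their own and held their listed point of highest pile-up. In the others a value can belong to a longer called peak. Fold enrichment had a median of 2.78 in Orc4-IHΔ cells (quartiles 2.35 and 3.78) and 3.31 in WT cells (2.32 and 7.14). The ratio of Orc4-IHΔ over WT had a median of −0.26 on the log2 scale (quartiles −0.81 and 0.28, range −2.27 to 1.93), against 0.07 (−0.50 and 0.66) at the 131 loci of the same make-up with both peaks at ATAC-seq peaks and −0.05 over all 232 such pairs. The Orc4-IHΔ value was the higher one in 36 of the 95 pairs (37.9%, 28.8% to 47.9%), compared with 71 of the 131 pairs at ATAC-seq peaks (54.2%) and 47.4% of all pairs. It was at least 1.5-fold above WT in 11 pairs (11.6%, 21.6% of all pairs) and at least 1.5-fold below it in 30 pairs (31.6%, 23.1% to 41.5%, against 26.7% of all pairs), and the other 54 pairs lay within 1.5-fold. At ATAC-seq peaks the corresponding counts were 37 pairs above (28.2%) and 29 below (22.1%). When an overlap of 50% of both peaks was required, 42 pairs outside ATAC-seq peaks were left and their median log2 ratio was 0.026.

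**Figure D2:**
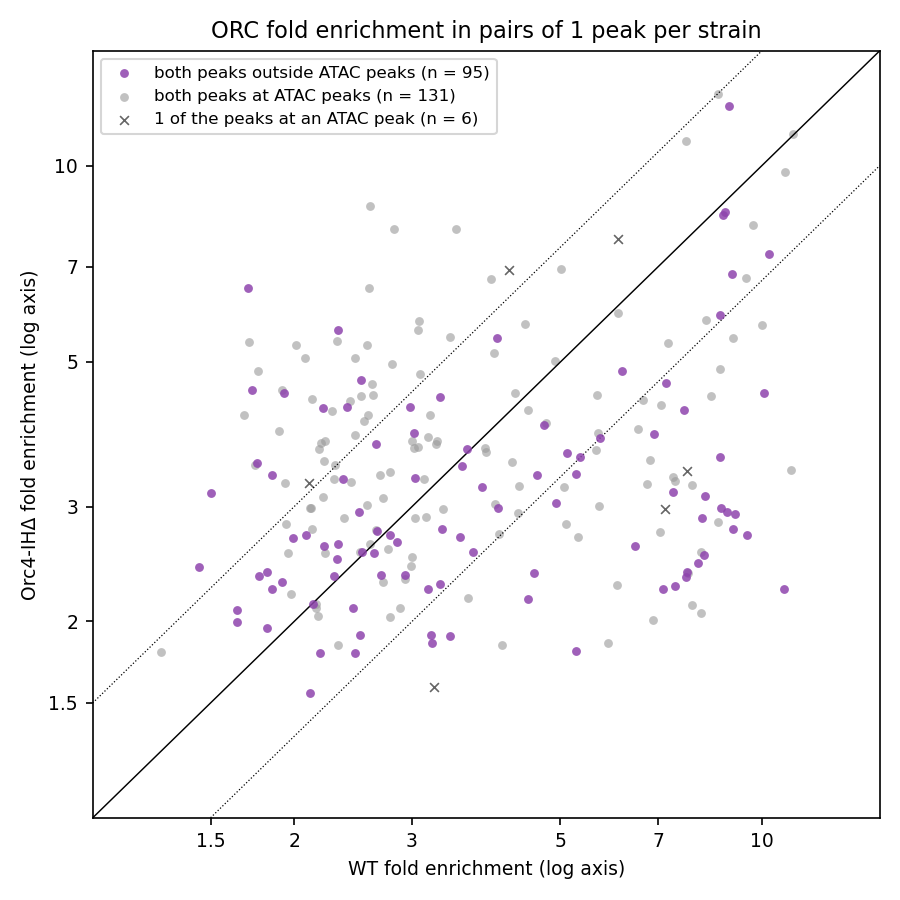
Fold enrichment of the Orc4-IHΔ peak (vertical) against that of the WT peak (horizontal) at 232 loci with 1 peak per strain, both axes logarithmic. The 95 pairs outside ATAC-seq peaks are purple, the 131 pairs at ATAC-seq peaks grey and the 6 mixed pairs crosses. The solid line marks equal values and the dotted lines 1.5-fold. Most purple points with a WT value above 7 lie below the lower dotted line.

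Along the range of WT values the Orc4-IHΔ medians stayed between 2.46 and 3.29. Ranked by WT fold enrichment, the lowest 24 pairs had WT values of 1.44 to 2.32 and a median Orc4-IHΔ value of 2.46, and in 21 of them the Orc4-IHΔ value was the higher one. In the next 24 pairs, with WT values of 2.32 to 3.31, the Orc4-IHΔ median was 2.68 and 12 were higher in Orc4-IHΔ cells. For the 24 pairs with WT values of 3.32 to 7.18 the Orc4-IHΔ median was 3.29, and for the 23 pairs with WT values of 7.36 to 10.8 it was 2.99, with 2 and 1 pairs higher in Orc4-IHΔ cells. As the pairs were ranked on the WT value, which is also the denominator, the ratio is tied to the rank. Across the 95 pairs the log2 fold enrichments of the strains correlated with Pearson's r = 0.326 and Spearman's rho = 0.291, against 0.242 and 0.165 over the 131 pairs at ATAC-seq peaks. These values run across peaks of the same 2 lists, which are not independent replicates.

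The pairs with a WT fold enrichment of 7 or more, a limit chosen after the values were seen, covered a wide range in the mutant list. There were 25 such pairs outside ATAC-seq peaks, with a median of 2.99 in Orc4-IHΔ cells (2.24 to 12.3) and 8.66 in WT cells. The Orc4-IHΔ value was under 3 in 13 of them and 5 or more in 6. At ATAC-seq peaks there were 23 such pairs with a median of 4.43 in Orc4-IHΔ cells, of which 6 were under 3 and 10 were 5 or more.

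The strong WT peaks with a weak counterpart included the highest one wholly outside open chromatin. At chromosome VI the Orc4-IHΔ peak chrVI:135656-135886 had a fold enrichment of 2.24, against 10.8 for the WT peak chrVI:135608-137066, a log2 ratio of −2.27 and the lowest of the 95 pairs. The next lowest were at chrXIII:503607-503750 in Orc4-IHΔ cells (2.72, against 9.51 at chrXIII:503285-503825 in WT cells, log2 ratio −1.81) and at chrV:353449-353600 in Orc4-IHΔ cells (2.34, against 7.71 at chrV:353114-354054 in WT cells, −1.72). Each of these 3 mutant peaks lay wholly within its WT peak. Similar values were seen at chrV:145567-145716 in Orc4-IHΔ cells (2.46, against 8.04 at chrV:145363-146114 in WT cells) and at chrIX:342290-342481 in Orc4-IHΔ cells (2.78, against 9.06 at chrIX:341108-342553 in WT cells), both with a log2 ratio of −1.71.

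Other loci among the 10 with the highest WT values had Orc4-IHΔ peaks of varied strength. At chrIV:1446969-1447835 the Orc4-IHΔ value was 4.48, against 10.1 for the WT peak chrIV:1446743-1448069. At chrIV:85993-86223 it was 2.92, against 9.13 for the WT peak chrIV:85738-86311. The WT peak chrXI:212774-213670 (9.54) was met by 2 Orc4-IHΔ peaks, with values of 2.61 and 2.33, all of them outside ATAC-seq peaks. At 2 other loci the WT peak itself reached an ATAC-seq peak and 1 of 2 mutant peaks did not. These were chrII:62671-62948 in Orc4-IHΔ cells (3.84), at a WT peak of 10.1, and chrII:741595-741922 in Orc4-IHΔ cells (6.998), at the WT peak chrII:741190-742329 (9.64).

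A smaller set of sites stayed strong in both lists. The highest Orc4-IHΔ value was 12.3 at chrIV:554976-556071, against 8.94 at chrIV:554999-556175 in WT cells. Of the 25 pairs with a WT value of 7 or more, this was the one with the higher value in Orc4-IHΔ cells. At chrXIII:286764-287115 the Orc4-IHΔ value was 8.47, against 8.81 at chrXIII:286749-287120 in WT cells, and at chrIII:11030-11581 it was 8.40, against 8.75 at chrIII:11006-11578 in WT cells. In these 3 pairs both intervals nearly coincided. At chrXIV:279961-280439 the Orc4-IHΔ value was 7.31, against 10.3 at chrXIV:279921-280358 in WT cells. The WT intervals chrXIII:286749-287120 and chrXIV:279921-280358 shared their peak name with another line, as did chrIV:505315-505893, named below. Their values can belong to a longer called peak. At chrII:143496-143858 it was 6.82, against 9.01 at chrII:143248-144537 in WT cells, and at chrIX:245575-245895 it was 5.91, against 8.66 at chrIX:245051-245951 in WT cells. The wide Orc4-IHΔ peak chrXVI:510666-512061 (6.77) spanned 2 WT peaks, chrXVI:510832-510997 (2.54) and chrXVI:511096-511996 (7.27). At 2 other loci among the 10 with the highest Orc4-IHΔ values the mutant peak met an ATAC-seq peak and the WT peak did not, with 7.73 in Orc4-IHΔ cells and 6.10 in WT cells at chrIV:505315-505893, and with 6.92 in Orc4-IHΔ cells and 4.19 in WT cells at chrXIII:758083-758715.

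The 5 pairs with the highest ratios had low values in the WT list, which is the denominator. The largest ratio was at chrXVI:499206-499578, with 6.49 in Orc4-IHΔ cells against 1.70 in WT cells, 3.81-fold, where the WT peak chrXVI:499487-499518 was the narrowest WT peak of the set at 32 bp. It was followed by chrX:122260-122408 (4.53 in Orc4-IHΔ cells against 1.73 in WT cells, log2 ratio 1.39) and chrIV:1021693-1021959 (5.60 against 2.32 in WT cells, 1.27). The next were chrIX:380444-380739 (4.48 in Orc4-IHΔ cells against 1.93 in WT cells, 1.21) and chrIV:472747-472859 (3.15 against 1.50 in WT cells, 1.07). In all 5 pairs the WT value was 2.32 or less, against a WT median of 3.31 over the 95 pairs. In each of these pairs an interval shared its peak name with another line or did not hold its listed point of highest pile-up. Its value can thus belong to a longer called peak. The same held for the low-ratio pairs at chrVI:135656-135886, chrXIII:503607-503750 and chrIX:342290-342481.

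The position of the 2 peaks within a pair differed from that at open chromatin. In 46 of the 95 pairs (48.4%, 38.6% to 58.3%) the Orc4-IHΔ peak lay wholly inside the WT peak, in 11 (11.6%) the WT peak lay inside the Orc4-IHΔ peak, and in 38 (40.0%) they were staggered. At ATAC-seq peaks these counts were 30 (22.9%), 29 (22.1%) and 72 (55.0%) of 131. The Orc4-IHΔ peak was the wider one in 25 pairs (26.3%), against 65 (49.6%) at ATAC-seq peaks. The overlap had a median of 178 bp (4 to 1244 bp), which was 97.9% of the Orc4-IHΔ peak and 49.0% of the WT peak at the median, against 71.5% and 77.6% at ATAC-seq peaks.

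Width and nesting moved with the WT fold enrichment. In the lowest 24 pairs by WT value the median width was 223 bp in Orc4-IHΔ cells and 168 bp in WT cells, and 4 Orc4-IHΔ peaks lay inside the WT peak. In the highest 23 pairs it was 219 bp in Orc4-IHΔ cells and 874 bp in WT cells, and 19 Orc4-IHΔ peaks lay inside. Fold enrichment and width correlated over the pairs with r = 0.425 and rho = 0.435 in the Orc4-IHΔ list and r = 0.670 and rho = 0.661 in the WT list, again across peaks of 1 list. The depth of the libraries, which could not be read from the lists, and the cutting of intervals also bear on peak width and nesting. Their part was not tested.

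**Figure D3:**
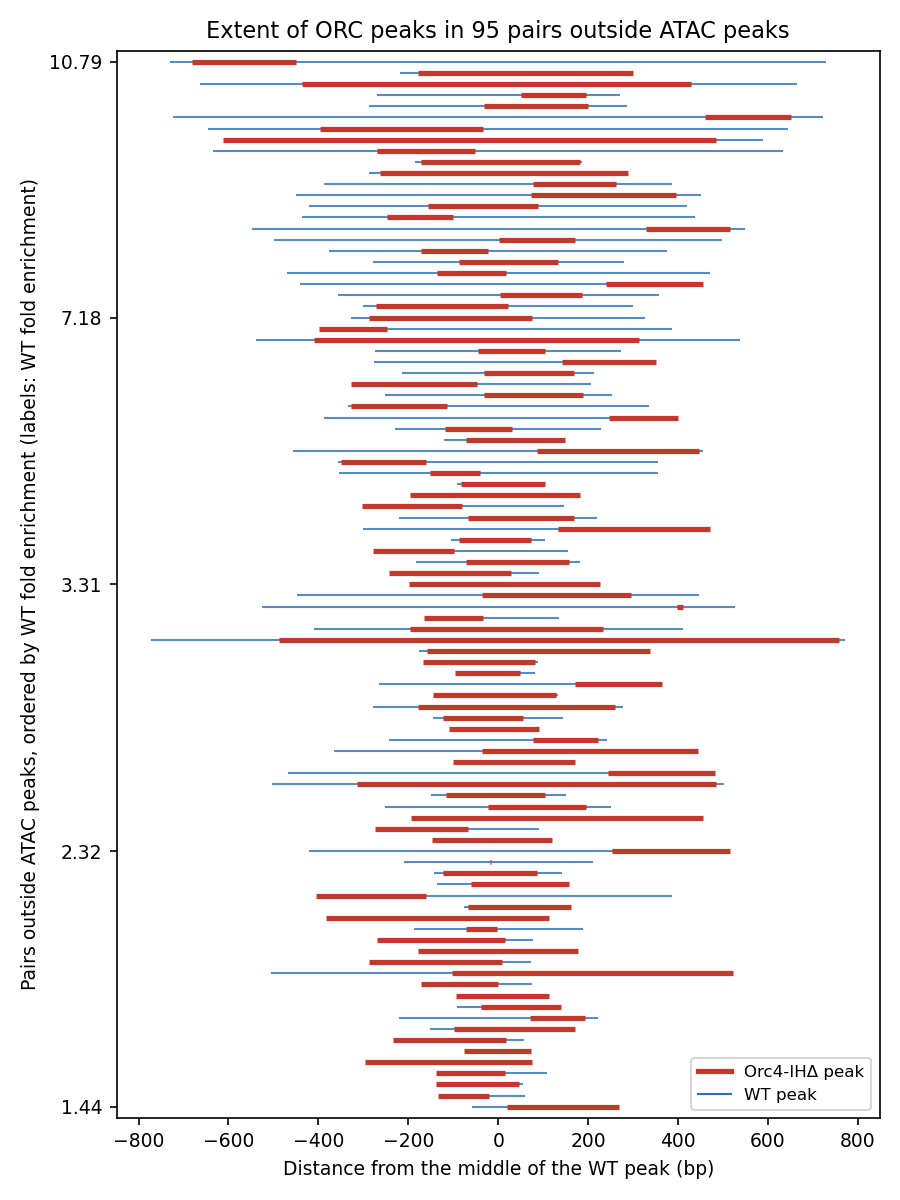
Extent of the ORC peaks at the 95 loci with 1 peak per strain outside ATAC-seq peaks, ordered by WT fold enrichment, as distance in bp from the middle of the WT peak. Thick red lines are Orc4-IHΔ peaks and thin blue lines WT peaks. Toward the strong WT peaks the blue lines lengthen (median 874 bp in the highest 23 pairs) while the red lines keep similar lengths (219 bp).

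Where the summits, the points of highest pile-up, could be compared, their computed positions lay close to each other. A listed summit is an offset from the start of the called peak and was added to the start of the listed interval. For an interval cut at its start the position is therefore off, and such cuts could not be seen. Over the whole lists, 225 of 2219 Orc4-IHΔ and 90 of 618 WT lines had a summit beyond their interval. Both peaks had a name of their own and a listed summit inside their interval in 69 of the 95 pairs, and the median distance between the Orc4-IHΔ and the WT summit was 48 bp (quartiles 21 and 143 bp, at most 488 bp). It was within 50 bp in 35 pairs (50.7%), within 100 bp in 44 (63.8%) and within 200 bp in 57 (82.6%). Over the 96 pairs at ATAC-seq peaks with usable summits the median was 130 bp, and 26 (27.1%) were within 50 bp. For the 4 groups of pairs ranked by WT value, low to high, the median summit distances were 35, 64, 56 and 36 bp. Each summit lay inside 1 of 2 overlapping intervals, so narrow peaks cannot have distant summits. In the lowest group, with median widths of 223 bp in Orc4-IHΔ cells and 168 bp in WT cells, short distances were largely set by the choice. Over the 95 pairs Orc4-IHΔ peaks were also narrower than at ATAC-seq peaks (medians 221 and 365 bp), while WT peaks were wider (458 and 370 bp). At chrXIV:196032-196267 (2.56 in Orc4-IHΔ cells against 3.70 in WT cells), chrXIII:688859-689079 (3.36 against 5.28 in WT cells) and chrXVI:43131-43493 (4.65 against 7.18 in WT cells), chosen after their values were seen, both computed summits fell on the same base. Whether these intervals had been cut at their start is unknown. The midpoints of the intervals were 86 bp apart at the median in these pairs and 114 bp at ATAC-seq peaks.

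Most of the shared peaks had an ATAC-seq peak in their neighbourhood although they did not touch it. The median distance to the nearest ATAC-seq peak was 832.5 bp for the Orc4-IHΔ peaks (3 to 7042 bp) and 734 bp for the WT peaks (5 to 7200 bp). Within 1000 bp were 76 of the 130 Orc4-IHΔ peaks (58.5%, 49.9% to 66.6%) and 73 of the 111 WT peaks (65.8%). Among peaks of 1 list only, also outside ATAC-seq peaks, 31.3% of the Orc4-IHΔ peaks (171 of 546, 27.6% to 35.3%) and 60.3% of the WT peaks (167 of 277) were as close. Those peaks lay at a median of 1542 bp in the Orc4-IHΔ list and 734 bp in the WT list, so the shared peaks had the shorter median in the Orc4-IHΔ list but not in the WT list. Distances under 100 bp were found for 7 Orc4-IHΔ peaks (5.38%) and 12 WT peaks (10.8%), and under 2000 bp for 112 (86.2%) and 95 (85.6%). The neighbouring ATAC-seq peaks had median fold enrichments of 3.74 for Orc4-IHΔ and 3.90 for WT peaks, against 3.20 over all 2716 merged regions, and were 572 and 573 bp wide at the median, against 458 bp. Around peaks of 1 list only outside ATAC-seq peaks the values were similar or higher, with median fold enrichments of 3.73 for Orc4-IHΔ-only and 4.41 for WT-only peaks and widths of 555 and 605 bp.

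**Figure D4:**
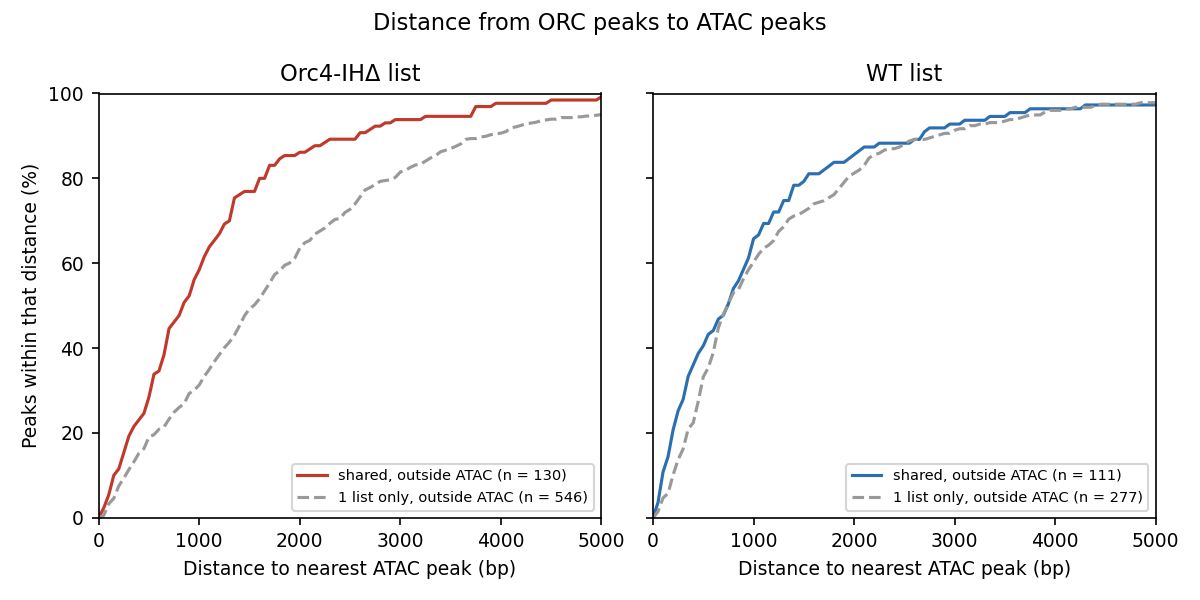
Cumulative percent of ORC peaks outside ATAC-seq peaks (vertical) within a given distance in bp of the nearest ATAC-seq peak (horizontal), Orc4-IHΔ list left and WT list right, for peaks shared with the other strain and peaks of 1 list only. At 1000 bp the lines stand at 58.5% and 31.3% in the Orc4-IHΔ list and at 65.8% and 60.3% in the WT list.

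At the edge of the choice, the peaks just outside an ATAC-seq peak were chrII:6455-6800 in Orc4-IHΔ cells (3 bp away, fold enrichment 2.85), chrVII:278254-278398 in Orc4-IHΔ cells (26 bp, 2.54) and chrII:605438-605560 in Orc4-IHΔ cells (44 bp, 1.95). In WT cells these were chrVII:277935-278419 (5 bp, 2.63), chrII:605146-605588 (16 bp, 1.82) and chrV:51858-52094 (18 bp, 2.10). Shared peaks that were left out for the smallest overlaps were chrVIII:381638-381900 (34 bp, 4.39), chrVII:311849-312236 (42 bp, 2.78) and chrXII:283374-283582 (50 bp, 2.30) in Orc4-IHΔ cells. In WT cells they were chrIV:913610-914654 (19 bp, 7.16), chrIV:628981-629680 (29 bp, 7.73) and chrVI:76077-76446 (32 bp, 2.16). Of the peaks left out here, both WT peaks of chromosome IV had values above 7, while the peaks just inside the limit were all below 3.

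The limit between the ORC lists was as fine. The smallest overlap counted was 4 bp, at chromosome VI, where the Orc4-IHΔ peak chrVI:53461-53464 (2.49) was only 4 bp wide and lay in the WT peak chrVI:53270-53689 (2.32). The smallest gap not counted was 5 bp, between chrXIII:511802-512012 in Orc4-IHΔ cells (2.57) and chrXIII:511609-511796 in WT cells (2.09). Within 100 bp of a peak of the other list were 6 of the 546 Orc4-IHΔ-only and 7 of the 278 WT-only peaks outside ATAC-seq peaks.

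The peaks farthest from open chromatin lay on chromosome XII, where chrXII:222142-222365 in Orc4-IHΔ cells (3.22) was 7042 bp and chrXII:222300-222591 in WT cells (3.82) 7200 bp from an ATAC-seq peak. The locus on chromosome XVI around the 1396 bp wide Orc4-IHΔ peak chrXVI:510666-512061 followed at 4990 bp, with its WT peaks at 6054 and 5055 bp. The next in the Orc4-IHΔ list was chrXIII:688859-689079 at 4493 bp. Of the strong sites, chrIV:554976-556071 was 256 bp from an ATAC-seq peak in Orc4-IHΔ cells and the WT peak there 152 bp, while chrIII:11030-11581 was 2946 bp away. High values were thus listed both near to and far from open chromatin.

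Other Orc4-IHΔ peaks were common around these loci, as around the other shared loci. Of the 125 loci, 67 (53.6%, 44.9% to 62.1%) had a further Orc4-IHΔ peak within 1 kb and 115 (92.0%) within 5 kb. A further WT peak was found within 1 kb of 34 loci (27.2%, 20.2% to 35.6%) and within 5 kb of 58 (46.4%). At the 146 shared loci with all their peaks at ATAC-seq peaks, the shares were 51.4% and 89.0% for Orc4-IHΔ peaks and 33.6% and 56.2% for WT peaks. For Orc4-IHΔ peaks the shares at both kinds of loci were thus close to each other. The length of the Orc4-IHΔ list (2219 peaks) raises such shares anywhere, and the share at random positions was not computed.

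The loci themselves were scattered. The median gap to the nearest locus of the set was 33075 bp, against 23764 bp among shared loci at ATAC-seq peaks, and 7 loci (5.60%) had another one within 1000 bp, against 17 (11.6%). Gaps were measured within each group, and the set is the smaller one (125 against 146 loci), which by number alone lengthens gaps. On chromosome IV, 3 loci followed each other at gaps of 165 and 131 bp. Their Orc4-IHΔ and WT values were 1.59 and 3.23 at chrIV:1236639-1237507, 1.79 and 2.47 at chrIV:1237673-1237972 and 2.68 and 1.99 at chrIV:1238104-1238458. A further locus, chrIV:1240515-1241388, lay 2056 bp beyond, with 3.12 in Orc4-IHΔ cells and 8.22 in WT cells. On chromosome XI, chrXI:516315-517086 (3.68 in Orc4-IHΔ cells and 3.63 in WT cells) and chrXI:517521-517716 (2.99 and 4.03) were 434 bp apart.

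Loci of the set were found on each of the 16 nuclear chromosomes, and none on the 2-micron plasmid or mitochondrial DNA. Over all shared loci 125 of 271 belonged to the set. Chromosome IV, the longest, held the most, 26 of its 37 shared loci (70.3%), and chromosome VIII the fewest, 1 of 6 (16.7%). Chromosome I followed chromosome IV with 4 of 6 (66.7%), while chromosome III had 3 of 12 (25.0%) and chromosome XII 11 of 31 (35.5%). Per 100 kb the loci numbered between 0.178 on chromosome VIII and 1.81 on chromosome I, with 1.70 on chromosome IV. With few loci on most chromosomes, these shares rest on small counts.

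**Figure D5:**
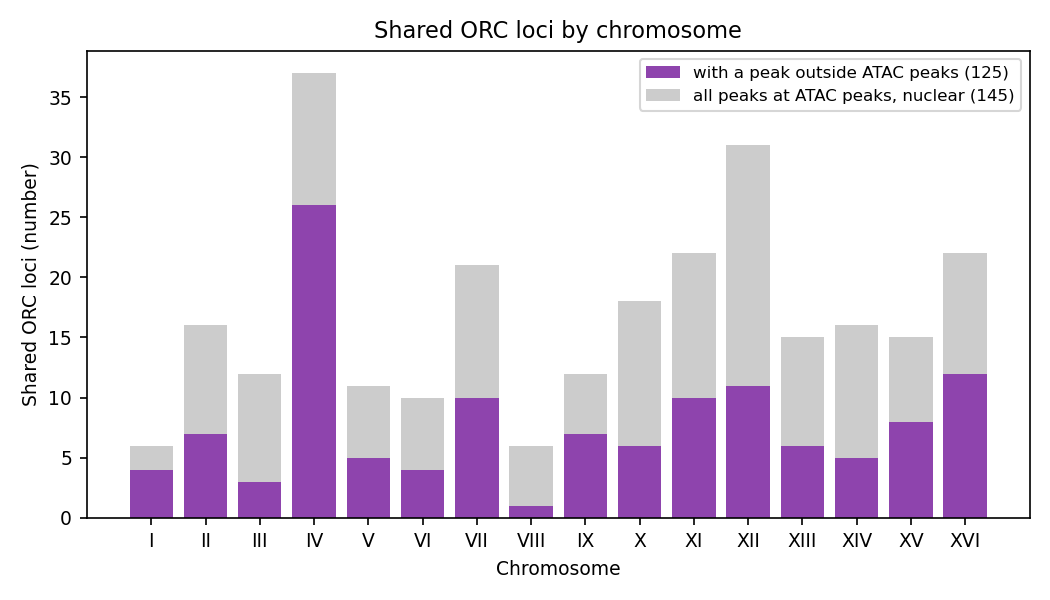
Number of loci shared by the Orc4-IHΔ and WT ORC lists on each nuclear chromosome, stacked as the 125 loci with a peak outside ATAC-seq peaks and the 145 with all peaks at ATAC-seq peaks. Chromosome IV has the most with a peak outside ATAC-seq peaks, 26 of 37.

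Within 10 kb of a chromosome end lay 9 of the 130 Orc4-IHΔ peaks (6.92%, 3.68% to 12.6%, against 2.79% of the whole list) and 1 of the 111 WT peaks (0.901%, 0.159% to 4.93%, against 4.69% of the whole list). Shared peaks at ATAC-seq peaks were there in 10.0% of cases in Orc4-IHΔ cells (18 of 180) and 9.04% in WT cells (15 of 166). Each of these 2 counts includes 1 peak on the 2-micron plasmid. The whole-list shares also include the peaks on the 2-micron plasmid and mitochondrial DNA, whose ends were treated like chromosome ends. Among the 146 shared loci at ATAC-seq peaks, 8 (5.48%) were counted as near an end, of which 1 was on the 2-micron plasmid. In the set, 8 of 125 loci (6.40%) lay near an end. At 7 of the 8 a long WT peak reached an ATAC-seq peak while 1 or more shorter Orc4-IHΔ peaks overlapping it did not. At chrIX:438126-439781 the mutant list had 4 peaks, with values of 5.60, 1.55, 3.38 and 2.32, of which the strongest, chrIX:438126-438405, missed the ATAC-seq peaks, and the WT list had 1 peak of 6.29. At chrII:5979-7398 there were 3 Orc4-IHΔ peaks, with values of 1.63, 2.85 and 3.92, under a WT peak of 6.84. The remaining locus near an end, chrII:8240-8531, lay wholly outside ATAC-seq peaks, with 3.50 in Orc4-IHΔ cells and 1.76 in WT cells. None of these peaks near the ends met the overlap of 50% of both peaks. A similar split away from the ends was seen at chrXVI:405126-406488, where Orc4-IHΔ peaks of 1.82, 2.07 and 2.08 stood against 1 WT peak of 2.14.

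Some intervals were pieces of a called peak. A peak name was shared with another line for 11 of the 130 Orc4-IHΔ peaks (8.46%) and 9 of the 111 WT peaks (8.11%), and the value on such a line can belong to the whole called peak. A name of its own and a listed summit within its interval were found for 106 Orc4-IHΔ peaks (81.5%) and 97 WT peaks (87.4%), and summits were compared for such peaks. The widest WT peak of the set, chrIV:45090-46788 (7.10), was 1699 bp long and spanned 2 Orc4-IHΔ peaks.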

How the data were processed

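ORC ChIP-seq and ATAC-seq peak lists of Orc4-IHΔ and WT cells were used, 4 lists in all. The labels name the build sacCer2 and the tools Bowtie 1.2.2, SAMtools 1.3.1, bedtools 2.27.1, Picard and MACS2 2.1.1.20160309 for ORC, and Bowtie2 2.3.4.1, Picard and MACS2 for ATAC-seq. The fold enrichment, a linear ratio over local background, and the −log10 p and −log10 q values were computed by the authors and are used as deposited. The deposited score was not analysed. By their names, the ORC lists hold peaks found in common between libraries and leave out RNA genes, and the ATAC-seq peaks were called at a p of 0.01. For ATAC-seq, list names and sample labels give opposite strains, which does not affect the merged regions. The list labelled Orc4-IHΔ holds 2457 peaks and that labelled WT 2480. The paper gives 2457 for WT and 2480 for Orc4-IHΔ cells, which goes with the list names. Other assays of the series were not analysed here, and no column of another sample was used.

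Touching or overlapping ATAC-seq peaks were merged, ORC peaks were matched by an overlap of 1 bp or more, and overlapping ORC peaks of both lists were joined into loci. Chromosome ends were taken from the largest peak end over the 4 lists, also for the 2-micron plasmid and mitochondrial DNA. Regions are given in sacCer2, counted from 1. A gene table of another assembly was not used, so no gene or sequence is given. With 1 list per strain no test was made, and shares have 95% Wilson intervals. The depth per sample is unknown. Tested on simulated data for the same overlaps, the code placed 400 of 400 peaks in the right class. Regions were named for the highest fold enrichments of each strain (10 loci each), the highest and lowest ratios (5 pairs each), the distances nearest to and farthest from an ATAC-seq peak and the smallest overlaps with one (3 peaks each), loci of 4 or more peaks, and extreme widths. Those named outside this rule are marked or illustrate a count. The peaks, the lists and this rule were chosen with earlier results of these data known. The alternatives were a 50% reciprocal overlap, midpoints, ATAC-seq peaks found in both lists, a minimum −log10 q of 2 for them, peaks at or above the median of their list, joining lines of 1 name, leaving out chromosome ends, 20 kb in place of 10 kb for an end and a 2-fold limit. Computations used pandas 2.3.3 with numpy 2.4.6 and scipy 1.17.1 under Python 3.11.15, and figures were drawn with matplotlib 3.10.9.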

Additional observations from a re-analysis of the deposited data

How the results depend on the processing

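A minimum −log10 q of 2 left out only 4 and 3 ATAC-seq peaks of the lists labelled Orc4-IHΔ and WT and gave 9 identical values, which test nothing. Of the other 55 alternative values of 10 results, 38 stayed within the 95% interval of the result or, for counts, within 1.5 times of it, 16 moved past that limit and 1 changed sign. Asking for an overlap of 50% of both ORC peaks had the most effect. It left 42 Orc4-IHΔ peaks, 42 WT peaks and 42 loci outside ATAC-seq peaks, took the Orc4-IHΔ share of shared peaks to 36.2% and the Orc4-IHΔ median fold enrichment to 3.34, and turned the median log2 ratio of the pairs to 0.026, against −0.26. No peak near a chromosome end was left (0 of 84, which allows up to 3.57% at 3 counts, or up to 4.37% by the Wilson limit, which is above the 4.15% of the full set). A small Orc4-IHΔ peak inside a long WT peak cannot pass that overlap. With 20 kb in place of 10 kb the share near an end in the full set was 5.81%. Counting a WT peak by its midpoint took the WT share outside ATAC-seq peaks to 58.1%. With only ATAC-seq peaks found in both lists the share was 49.4% in Orc4-IHΔ cells and 46.9% in WT cells. Keeping ORC peaks at or above the median of their list left 44 Orc4-IHΔ peaks, 35 WT peaks and 43 loci, with median fold enrichments of 3.90 in Orc4-IHΔ cells and 6.10 in WT cells and a WT share of 33.3%. At 2-fold in place of 1.5-fold, 26.3% of pairs differed, against 43.2%. No replicate could be left out, since the libraries of a strain are combined in 1 list, and no paired analysis was possible because each strain has 1 list. Unknown depth limits what a missing peak can mean.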

Other observations

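Outside the nuclear chromosomes, the Orc4-IHΔ list had 3 ORC peaks on the 2-micron plasmid, with fold enrichments of 1.69, 1.43 and 1.79. The WT list had 2 there, with 1.20 and 1.26, and 1 on mitochondrial DNA, with 1.33. None of them is among the shared peaks outside ATAC-seq peaks.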
